A study of Homo sapiens with 6 samples.

Results

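The 32 genes described here are subunits and partners of the transcription factor AP-1 together with other immediate early genes, in the human breast cancer line MDA-MB-468 and its paclitaxel-exposed derivative MDA-MB-468-PR. They were chosen by name, as a list matched to the Entrez gene IDs of the count table, with earlier results of these data known; all 32 were found among 28395 IDs. MDA-MB-468 is an established line of triple-negative breast cancer, a tumour type low in oestrogen receptor, progesterone receptor and HER2. The derivative, called resistant below as in the labels, was made by keeping the parental cells in paclitaxel, which blocks mitosis by stabilising microtubules, at 3 to 4.5 nM over 2 months. RNA was sequenced from 3 libraries of the parental line, called control, and 3 of the resistant line. All 6 are labelled untreated, and the growth protocol, high-glucose DMEM with 10% serum, is the same for both. The labels give 2 batch dates, 1 in 2020 and 1 in 2021: control 1 and resistant 1 carry the earlier one, and control 2 and 3 and resistant 2 and 3 the later one. Whether the resistant line is a pool of cells or 1 clone, whether replicates were separate cultures, and which step the batch date marks is not stated in the labels. The p-values below therefore describe how these 6 libraries scatter, and part of that scatter may be technical.

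Immediate early genes are transcribed within minutes of a stimulus (serum, growth factors, stress, handling of cells) without new protein synthesis, because the factors that start them, such as SRF with its ternary complex partners and CREB, are already in the nucleus and are switched on by MAP kinases. AP-1 is a dimer of a FOS or JUN family protein, or of their ATF and MAF relatives, that binds the TPA response element and relays the signal to slower genes. Many of the mRNAs decay quickly, helped by ZFP36 and similar proteins, and the dual-specificity phosphatases (DUSP) feed back on the kinases, so that the response is brief. In epithelial tumour cells the same genes are driven by receptor tyrosine kinases, and MDA-MB-468 is known for its high EGF receptor.

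Each library held 37889818 to 93680129 counts, with the lowest totals in control 1 and resistant 1. A count of 0 would allow up to 0.0320 to 0.0792 CPM (counts scaled to a common library total; 3 counts of the library), and such floors cover counting error only. Levels are CPM scaled by TMM, edgeR's correction for library composition. They were compared between genes only per kb of coding or exon length. Epithelial markers were high (KRT19 at a mean of 2115 CPM, KRT8 at 1597 CPM), while PGR, of the progesterone receptor, LUM and DCN of fibroblasts, and CD3E of T cells had at most 1 count in any library. Other markers on those lists were present: ERBB2, of HER2, at a mean of 111 CPM, COL1A1 at 25.5 CPM, CD14 at 11.9 CPM, CD68 at 2.78 CPM and ESR1, of the oestrogen receptor, at 1.88 CPM. The libraries stood apart in 2 ways that touch the results. Transcripts of 13 mitochondrial genes summed to 633 CPM in control 1 and 584 CPM in resistant 1 but to 48.5 to 112 CPM in the 4 libraries of 2021. Within 2021, control 2 and resistant 3 had far lower FOS, FOSB and EGR counts than control 3 and resistant 2.

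The regulatory stretch before the start of 6 members is shown because these genes carry the main patterns below: FOS, FOSB, EGR1 and DUSP1 are among the genes with wide gaps between libraries of the same line and year, while MAFF and NR4A3 are among those called for the batch. Each is the 250 bases before the RefSeq transcription start (GRCh38.p14), 5′ to 3′ on the gene's strand: FOS chr14:75278578-75278827 (+), FOSB chr19:45467746-45467995 (+), EGR1 chr5:138465229-138465478 (+), DUSP1 chr5:172771196-172771445 (-), MAFF chr22:38201744-38201993 (+) and NR4A3 chr9:99821635-99821884 (+). Capitals mark the SRF-binding CArG box, the core of the cyclic AMP response element that CREB and ATF proteins bind (TGACGT, or ACGTCA on the other strand), and TATAAA.
FOS: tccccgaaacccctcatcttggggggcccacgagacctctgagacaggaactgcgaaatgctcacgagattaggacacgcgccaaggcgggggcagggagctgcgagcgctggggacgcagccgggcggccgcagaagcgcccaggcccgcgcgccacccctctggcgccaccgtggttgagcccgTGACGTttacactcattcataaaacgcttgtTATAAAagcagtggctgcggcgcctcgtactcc
FOSB: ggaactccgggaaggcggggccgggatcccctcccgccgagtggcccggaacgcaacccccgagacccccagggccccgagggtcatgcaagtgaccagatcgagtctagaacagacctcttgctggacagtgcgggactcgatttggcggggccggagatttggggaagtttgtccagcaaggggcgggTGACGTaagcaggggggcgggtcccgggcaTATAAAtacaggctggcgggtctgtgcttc
EGR1: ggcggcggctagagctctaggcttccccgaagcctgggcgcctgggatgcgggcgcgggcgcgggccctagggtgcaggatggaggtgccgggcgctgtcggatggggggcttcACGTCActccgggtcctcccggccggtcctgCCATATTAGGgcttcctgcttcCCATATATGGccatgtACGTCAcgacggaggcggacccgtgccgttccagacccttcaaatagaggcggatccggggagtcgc
DUSP1: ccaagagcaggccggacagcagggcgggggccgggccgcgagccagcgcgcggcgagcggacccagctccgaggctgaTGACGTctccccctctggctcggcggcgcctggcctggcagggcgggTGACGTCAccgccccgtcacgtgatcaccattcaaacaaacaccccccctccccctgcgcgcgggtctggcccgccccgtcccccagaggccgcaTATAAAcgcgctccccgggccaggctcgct
MAFF: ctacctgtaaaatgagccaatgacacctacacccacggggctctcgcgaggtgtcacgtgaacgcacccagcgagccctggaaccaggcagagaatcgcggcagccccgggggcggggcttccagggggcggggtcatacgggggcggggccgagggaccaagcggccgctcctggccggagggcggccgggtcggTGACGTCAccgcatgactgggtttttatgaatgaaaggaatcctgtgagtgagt
NR4A3: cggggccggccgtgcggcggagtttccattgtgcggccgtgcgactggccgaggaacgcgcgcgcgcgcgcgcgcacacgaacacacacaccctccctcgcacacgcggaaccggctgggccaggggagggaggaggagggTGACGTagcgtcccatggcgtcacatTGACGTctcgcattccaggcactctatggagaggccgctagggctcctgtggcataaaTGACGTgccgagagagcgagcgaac

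The RefSeq promoter table held 24 of the 32 members, with 250 bases before and 50 after the start. TGACGT, which was added after these promoters were read, stood in 8 of the 24 (33.3%; DUSP1, EGR1, FOS, FOSB, FOSL2, JUND, MAFF and NR4A3), against 8.32% of 27305 promoters of all genes. Its full palindrome TGACGTCA, which contains TGACGT on both strands, was found in DUSP1, JUND and MAFF (12.5%, against 1.98% of all). A CArG box was found in EGR1 alone of the 24 (4.17%, against 1.29%), as 2 copies that began 105 and 83 bases before the start. TATAAA stood in 5 (20.8%, against 12%), namely DUSP1, FOS, FOSB, GADD45B and JUNB. The TPA response element TGANTCA stood in FOSL2 only (4.17%, against 7.76%), and GGGCGG, the box of SP1 family proteins, in 17 (70.8%, against 44.6%). NR4A3 carried TGACGT 3 times, beginning 109, 83 and 25 bases before the start, and FOS once, 64 bases before it. Both strands were searched, and each gene was read at a single start. A match or its absence describes the letters of this window only. Sequence farther upstream or at other starts of a gene was not read. The shares over all genes were not matched for base composition.

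**Figure D1:**
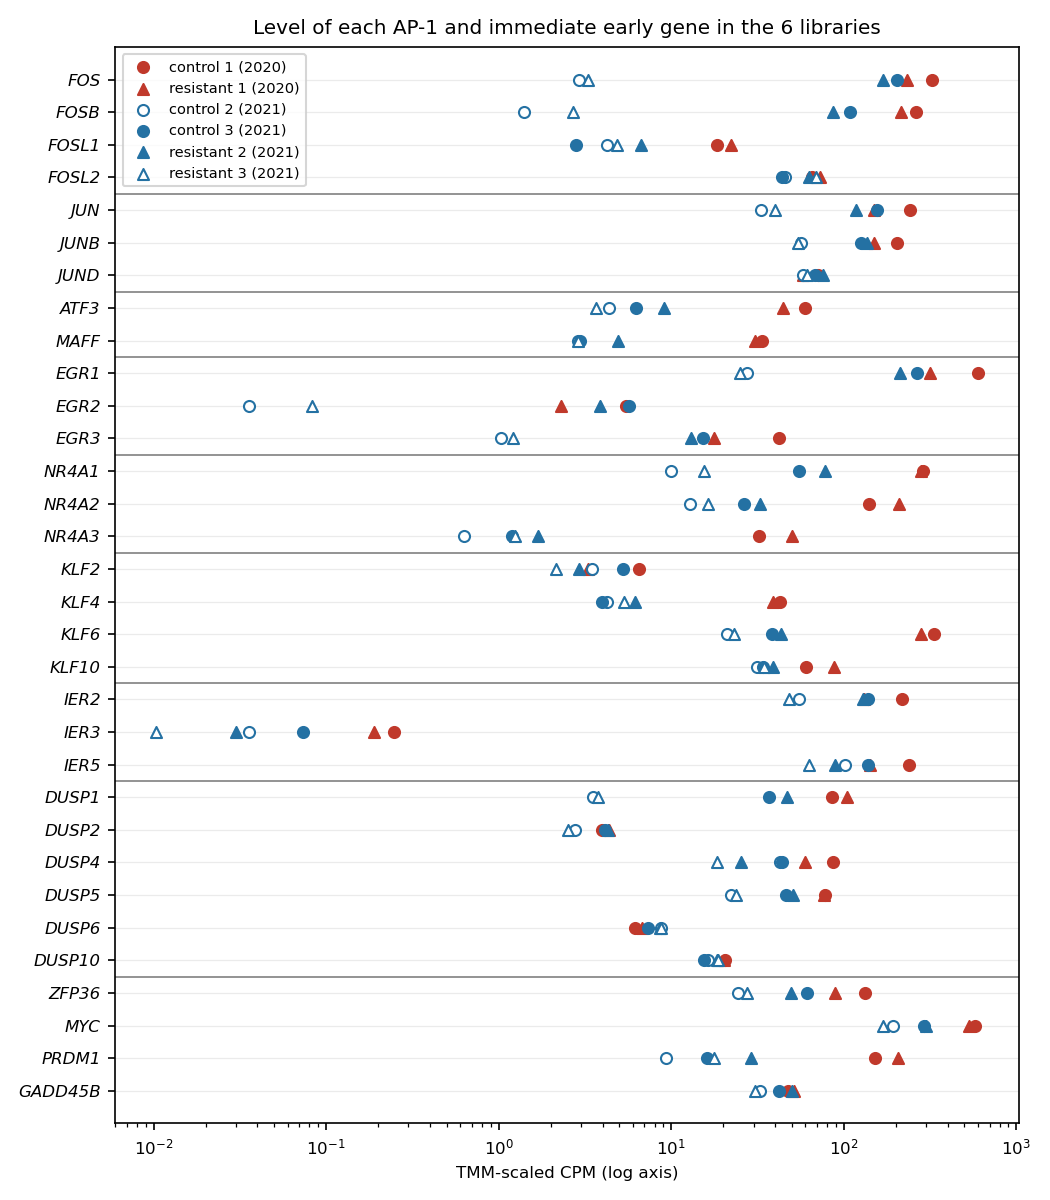
Level of each of the 32 genes in the 6 libraries, as TMM-scaled CPM on a log axis, grouped by role; circles are control, triangles resistant, red 2020, blue 2021, and open blue symbols are control 2 and resistant 3. Red symbols lie right of all blue ones for 22 of the 31 tested genes and for the untested IER3, which has few counts. Open symbols lie far left of filled ones for FOS, FOSB and the EGR genes.

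Between the lines, few of these genes differed once the batch was a term. FOSL2, an AP-1 subunit, was 1.33-fold higher in resistant cells, and KLF2, IER5 and DUSP4 were 1.80-, 1.61- and 1.80-fold lower. The other 27 tested members did not pass the test (edgeR's quasi-likelihood test with Benjamini-Hochberg adjustment over 13950 genes, adjusted p under 0.05). The 4 called members are 12.9% of the 31 tested, beside 11.7% of all tested genes, so the share was near the background. The median log2 difference of the 31 was 0.02, beside 0.00 over all genes. IER3, the remaining member, was below the filter on low counts, at 10, 2 and 5 counts in control 1, 2 and 3 and 7, 2 and 1 in resistant 1, 2 and 3. IER3 codes for a short-lived survival protein. The other 10 protein-coding genes listed within 150 kb of it on chromosome 6, TUBB and FLOT1 among them, had 0 counts in every library, except 1 count of C6orf136 in control 2; whether reads of this region were lost in processing was not tested.

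The FOSL2 gene (chr2:28392858-28417317) was measured at 65.5, 45.9 and 43.7 CPM in control 1, 2 and 3 and at 72.4, 62.6 and 68.6 CPM in resistant 1, 2 and 3. Control 1 exceeded resistant 2, so the lines overlapped, and in each year resistant was the higher line (0.14 log2 in 2020, 0.55 in 2021). The fitted difference was 0.42 ± 0.11 (log2, SE; adjusted p = 0.0434). A block for the replicate number gave an adjusted p of 0.0669. Within 2021, however, control 2 went with resistant 3 and control 3 with resistant 2 more than libraries of the same number did. A block with the 2021 numbers crossed, chosen after the data were seen, kept the calls of FOSL2, KLF2, IER5 and DUSP4. That pairing was taken from these same libraries, which itself can narrow the spread, so it is no separate check of the calls. For FOSL2 the adjusted p was 0.0877 without control 2, 0.0841 without control 3, 0.141 without resistant 2 and 0.199 without resistant 3.

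KLF2, a Krüppel-like zinc finger factor known from endothelial and lymphoid cells (chr19:16324826-16328685), stood at 6.49, 3.47 and 5.28 CPM in control and 3.29, 2.93 and 2.16 CPM in resistant, in the order of the replicates. Among the 31 it was the only gene whose 3 resistant libraries all lay below the 3 control libraries; 10.2% of all tested genes did so, and 20.9% did not overlap in either direction. The difference was -0.85 ± 0.22 (log2, SE; adjusted p = 0.0409), with -0.97 in 2020 and -0.76 in 2021. It had an adjusted p of 0.0741 with the block by replicate number. The crossed block, picked from these data, kept the call with an SE of 0.16 and is no separate check. The adjusted p was 0.0561 to 0.178 when control 1, control 3 or any resistant library was left out.

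IER5, which encodes a regulator of the heat shock factor HSF1 (chr1:181088700-181092900), had 237.5, 101 and 138 CPM in control and 142, 88.8 and 62.8 CPM in resistant. Within each year every resistant library was below every control library, and the fitted value was -0.69 ± 0.16 (log2, SE; adjusted p = 0.029). The crossed block, picked from these data, kept the call with an SE of 0.09 and is no separate check. With the block by replicate number the call was lost (adjusted p = 0.0592). It was also lost without control 1 (0.102), resistant 1 (0.116) or resistant 3 (0.121).

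DUSP4, a nuclear phosphatase of ERK and JNK whose gene is an ERK target, had 86.4, 42.9 and 44.1 CPM in control and 59.3, 25.3 and 18.4 CPM in resistant. It was lower in resistant by 0.54 log2 in 2020 and by 1.01 in 2021, with a fitted difference of -0.85 ± 0.15 (SE; adjusted p = 0.00832). Of the 4 it was the 1 member whose call held when each library in turn was left out and with the block by replicate number (adjusted p = 0.0128). Without a batch term it was not called (adjusted p = 0.534).

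The members without a line call spanned -0.80 log2 in EGR2 to 0.73 in PRDM1. Their standard errors ranged widely, from 0.11 in KLF10 and DUSP10 to 2.13 in FOS, and the wide ones belong to the genes that differed most between libraries of 1 line. A line difference of several fold would therefore not have been detectable in FOS, FOSB, EGR2 or EGR3, whose standard errors were 1.45 or more.

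**Figure D2:**
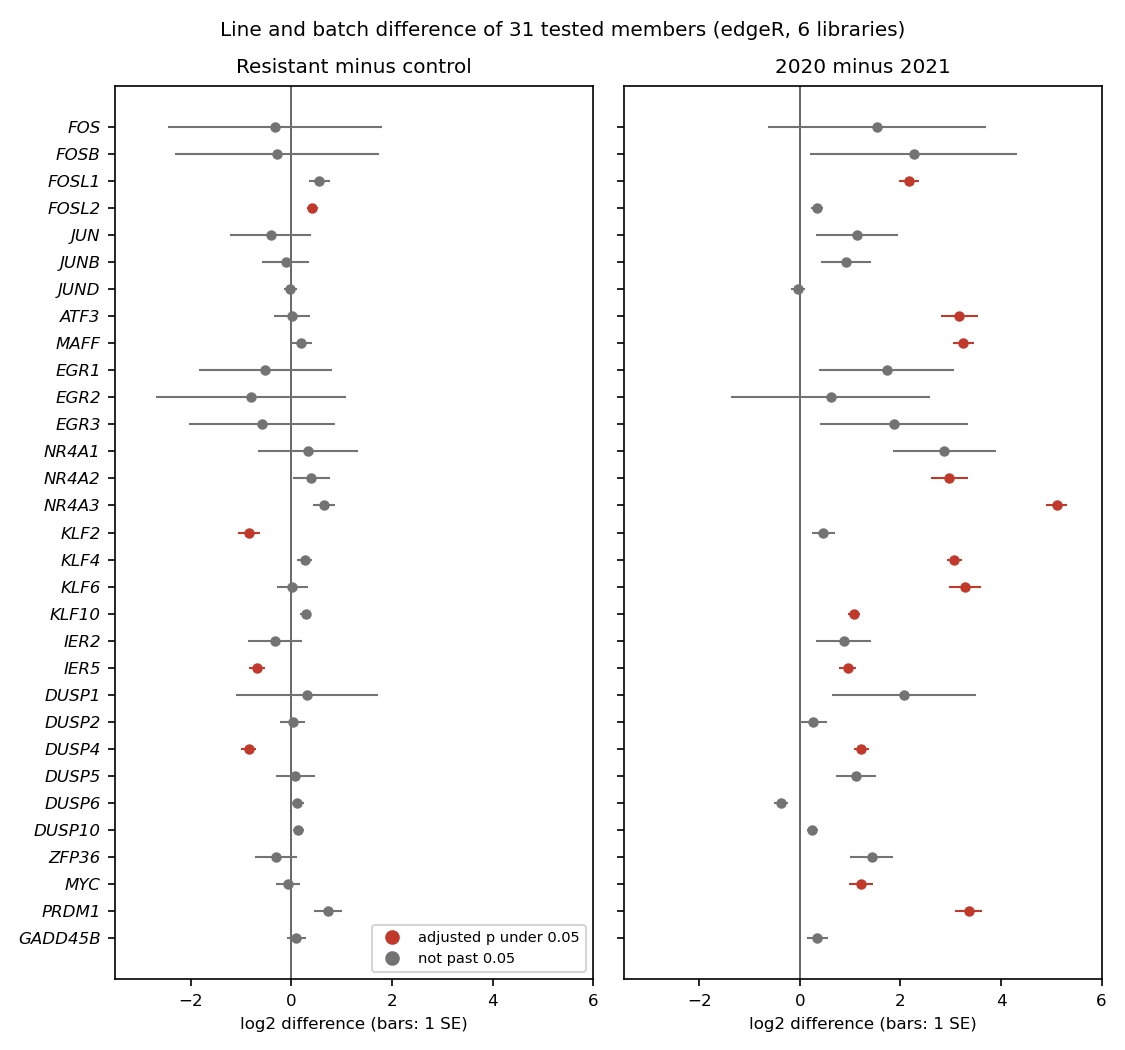
Fitted log2 difference of the 31 tested genes between the lines (left) and between the batches (right); bars are 1 SE and red marks an adjusted p under 0.05. On the left 4 genes are red, on both sides of 0; on the right 12 are red, all right of 0.

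Between the batches, most of these genes were higher in 2020 in both lines. Both 2020 libraries lay above all 4 of 2021 for 22 of the 31 genes (71%), against 21.5% of all tested genes, and below them for DUSP6 alone (21.9% of all genes lay below). The test called 12 members, all higher in 2020 (38.7%, against 11.4% of all genes higher and 22.9% in either direction): FOSL1, ATF3, MAFF, NR4A2, NR4A3, KLF4, KLF6, KLF10, IER5, DUSP4, MYC and PRDM1. The median log2 difference of the 31 was 1.22, from -0.37 in DUSP6 to 5.11 in NR4A3, beside -0.02 over all genes. In bulk RNA, fewer cells transcribing a gene and less RNA per cell cannot be told apart. Depth (lower in 2020) and mitochondrial transcripts (higher in 2020) moved with the batch; their part in these differences was not tested, and the biology and the handling of the 2 dates cannot be told apart.

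Among the FOS family, FOSL1 (FRA-1), the subunit tied to invasive breast cancer cells, rose in 2020. Its levels were 18.4, 4.27 and 2.79 CPM in control 1, 2 and 3 and 22.4, 6.68 and 4.87 CPM in resistant 1, 2 and 3, a difference of 2.17 ± 0.20 (log2, SE; adjusted p = 0.000597). FOS, the inducible partner of JUN, had 323.5, 2.93 and 202 CPM in control and 232, 169 and 3.31 CPM in resistant. FOSB, its paralog, had 262, 1.39 and 108 CPM in control and 216, 86.8 and 2.68 CPM in resistant. For both genes the 2020 libraries were highest, but control 3 and resistant 2 were closer to them, on a log scale, than to control 2 and resistant 3, and the batch differences of 1.54 ± 2.17 and 2.26 ± 2.06 (log2, SE) did not pass (adjusted p = 0.652 and 0.489). FOSL2 was 0.35 ± 0.12 higher in 2020 on the log2 scale, which missed the threshold (adjusted p = 0.0585). In the annotation, ERCC1 overlaps FOSB on the other strand, and the strand setting of the counting is not given, so reads of such partners cannot be told apart; the same holds for HOOK2 at JUNB, PLA2G6 at MAFF and ATG5 at PRDM1.

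None of the JUN family was called. JUN, the main transactivating subunit, stood at 242, 33.0 and 156 CPM in control and 149, 118 and 39.8 CPM in resistant. JUNB, whose protein can dampen JUN, had 203, 56.2 and 126 CPM in control and 151, 136 and 54.2 CPM in resistant. Both followed the order seen in FOS within 2021, with log2 batch differences of 1.14 ± 0.82 and 0.92 ± 0.49 (SE; adjusted p = 0.378 and 0.23). JUND, the subunit that quiescent cells also express, was the flattest of the 3, at 57.7 to 76.1 CPM in all 6 libraries, and its batch difference was -0.04 ± 0.14 (log2, SE).

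The bZIP partners ATF3 and MAFF were both called. MAFF, a small MAF protein without a transactivation domain, had 33.4, 2.88 and 2.97 CPM in control and 30.5, 4.89 and 2.88 CPM in resistant, 9.52-fold higher in 2020 (log2 3.25 ± 0.21, SE; adjusted p = 0.00011). The 4 libraries of 2021 were close together, and both of 2020 stood well above them in either line. ATF3, a stress-induced repressor and AP-1 partner, had 59.6, 4.36 and 6.25 CPM in control and 44.7, 9.03 and 3.66 CPM in resistant (log2 3.17 ± 0.37, SE; adjusted p = 0.00592). Without control 1, control 3 or resistant 1 the adjusted p of ATF3 was 0.125, 0.0762 and 0.0943.

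The EGR zinc fingers, immediate targets of SRF and ERK, followed FOS. EGR1 was at 601.5, 27.6 and 266 CPM in control and 314, 212 and 24.9 CPM in resistant. EGR3 was at 42.0, 1.04 and 15.3 CPM in control and 17.7, 13.0 and 1.204 CPM in resistant. EGR2 had 221, 2 and 386 counts in control and 85, 258 and 8 counts in resistant, so that control 2 was under the floor of 3 counts. Control 1 and resistant 1 were the highest libraries of their line for EGR1 and EGR3 but not for EGR2, where control 3 and resistant 2 were. None was called for the batch (log2 1.73 ± 1.34, 0.61 ± 1.97 and 1.88 ± 1.47 for EGR1, EGR2 and EGR3, SE; adjusted p = 0.418, 0.85 and 0.422).

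The NR4A genes encode orphan nuclear receptors that act without a known hormone. NR4A3 showed the largest batch difference of the 31, at 32.2, 0.626 and 1.195 CPM in control and 50.1, 1.70 and 1.25 CPM in resistant. Its level in 2020 was 34.5-fold that in 2021 (log2 5.11 ± 0.21, SE; adjusted p = 1.98e-05), and no 2021 library reached 2 CPM. NR4A2 had 141, 12.9 and 26.6 CPM in control and 210, 32.8 and 16.4 CPM in resistant (log2 2.97 ± 0.37, SE; adjusted p = 0.0084); the adjusted p was 0.17 without control 1 and 0.159 without resistant 1. NR4A1 had 286, 10.0 and 54.8 CPM in control and 280, 77.8 and 15.6 CPM in resistant, where the gap between 2021 libraries was wider and the batch difference of 2.87 ± 1.02 (log2, SE) was not called (adjusted p = 0.134).

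Of the KLF zinc finger factors, KLF4, KLF6 and KLF10 rose in 2020. KLF4, a factor of epithelial differentiation and of reprogramming (chr9:107484852-107489769), had 42.6, 4.27 and 3.95 CPM in control and 39.1, 6.18 and 5.36 CPM in resistant, a clean split by batch of 3.07 ± 0.15 (log2, SE; adjusted p = 3.92e-05). KLF6, a broadly expressed growth regulator, had 333, 21.2 and 38.3 CPM in control and 279, 43.4 and 23.0 CPM in resistant (log2 3.28 ± 0.32, SE; adjusted p = 0.00362). Its adjusted p was 0.118 without control 1 and 0.0887 without resistant 1. KLF10, a TGF-beta-inducible gene, had 60.1, 31.4 and 34.0 CPM in control and 87.9, 38.9 and 34.3 CPM in resistant (log2 1.08 ± 0.12, SE; adjusted p = 0.00115). KLF2 differed by 0.47 ± 0.23 (log2, SE) and was not called (adjusted p = 0.16).

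IER5 rose by 0.95 ± 0.17 log2 in 2020 (SE; adjusted p = 0.00841) and had an adjusted p of 0.113 without control 1 and of 0.0937 without resistant 1. IER2, a small nuclear protein, had 216, 55.3 and 138 CPM in control and 130, 130 and 47.9 CPM in resistant. Resistant 1 and 2 were level in IER2, and the batch difference of 0.87 ± 0.55 (log2, SE) was not called (adjusted p = 0.307). Per kb of coding sequence IER2 was the most abundant of the 32 on average, at 179 CPM per kb, followed by MYC at 153 and EGR1 at 148. With the spread between libraries this order of neighbours is not resolved. The order also depends on the length used: per kb of all exons, MYC had 115, EGR1 76.9 and IER2 38.9 CPM.

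The DUSP genes were uneven. DUSP4 rose by 1.22 ± 0.15 log2 (SE; adjusted p = 0.00202). DUSP1, which inactivates p38 and JNK and is itself induced within minutes, had 85.4, 3.50 and 36.8 CPM in control and 105, 46.8 and 3.76 CPM in resistant. DUSP5, a nuclear ERK phosphatase, had 77.6, 22.1 and 46.3 CPM in control and 76.5, 51.0 and 23.9 CPM in resistant. In both, the 2020 libraries were highest and control 2 and resistant 3 lowest, and neither was called (log2 2.07 ± 1.43 and 1.11 ± 0.40, SE; adjusted p = 0.37 and 0.102). DUSP6, the cytoplasmic ERK phosphatase often read as a gauge of steady ERK activity, ran the other way, at 6.14, 8.67 and 7.36 CPM in control and 6.73, 8.58 and 8.69 CPM in resistant. Its batch difference of -0.37 ± 0.14 (log2, SE) was not called (adjusted p = 0.0909). DUSP10, which acts on p38 and JNK, and DUSP2, which acts on ERK and p38, ranged over 15.5 to 20.6 CPM and 2.52 to 4.34 CPM and were not called (adjusted p = 0.136 and 0.484).

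MYC, the growth transcription factor, had 577.5, 192 and 293 CPM in control and 532, 299 and 170 CPM in resistant, 2.32-fold higher in 2020 (log2 1.22 ± 0.24, SE; adjusted p = 0.0156). Leaving out control 1 or resistant 1 gave an adjusted p of 0.182 and 0.154. PRDM1 (BLIMP-1), a repressor known from plasma cells, had 152, 9.33 and 16.1 CPM in control and 206, 29.1 and 17.8 CPM in resistant, a 10.3-fold difference (log2 3.36 ± 0.27, SE; adjusted p = 0.00133; 0.0583 without control 1). ZFP36, which binds AU-rich elements and speeds mRNA decay, had 133, 24.2 and 61.5 CPM in control and 89.2, 49.6 and 27.4 CPM in resistant and missed the threshold (log2 1.43 ± 0.43, SE; adjusted p = 0.0747). GADD45B, a stress-response regulator of MAP kinase signalling, lay between 30.4 and 51.5 CPM throughout (log2 0.35 ± 0.20, SE; adjusted p = 0.214).

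The batch difference was also read within each line, where 1 library of 2020 stands against 2 of 2021 and is assumed to vary like them. In control 7 members were called, all higher in 2020 (22.6%, against 1.51% of all tested genes): FOSL1, MAFF, NR4A3, KLF4, KLF10, DUSP4 and PRDM1. In resistant 6 were called, all higher (19.4%, against 1.23%): the same without PRDM1, whose adjusted p was 0.0446 in control and 0.0582 in resistant. NR4A3 differed by 5.12 log2 in control and 5.10 in resistant (adjusted p = 0.0011 and 0.00112), KLF4 by 3.37 and 2.76 (0.000136 and 0.000588) and MAFF by 3.51 and 2.98 (0.00129 and 0.00305). FOSL1 differed by 2.39 and 1.96 log2 (adjusted p = 0.00588 and 0.014), KLF10 by 0.88 and 1.27 (0.0369 and 0.00658) and DUSP4 by 0.99 and 1.44 (0.0448 and 0.00879). Without control 2 the calls in control of MAFF, DUSP4 and PRDM1 were lost (adjusted p = 0.056, 0.0927 and 0.103).

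The difference between the lines in their batch difference was tested itself. No member was called, each with an adjusted p of 1, and none had an unadjusted p under 0.05; over all genes 0 were called (0%), 187 (1.34%) had an unadjusted p under 0.05, and DESeq2 called 2. The fitted interaction of the members ranged from -1.02 log2 in EGR3 to 0.45 in DUSP4 with a median of -0.41, beside 0.00 over all genes. Its standard errors were 0.23 in FOSL2 to 5.51 in FOS, so unequal batch differences of several fold would not have been detectable in the FOS and EGR genes. Across the 31 genes, the batch differences of the 2 lines correlated with Pearson's r of 0.965 and Spearman's rho of 0.938 (r over all genes 0.69); the 2 lines share the batch dates but no library, and genes are not independent replicates. The line difference in each year was also read from mean log2 CPM, which is a different measure from the fitted interaction. In 2020 it sets 1 library against 1. By this measure resistant was the higher line in 2020 for 10 of the 31 genes (32.3%, against 49.5% of all). In 2021 it was higher for 20 (64.5%, against 50.1%). For FOSB the yearly values were -0.28 and 0.30 log2, while the fitted interaction was 0.02. In 2020 the line difference reached 2-fold in EGR2 and EGR3 only, both lower in resistant (-1.25 log2 each; 5.63% of all genes reached 2-fold).

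**Figure D3:**
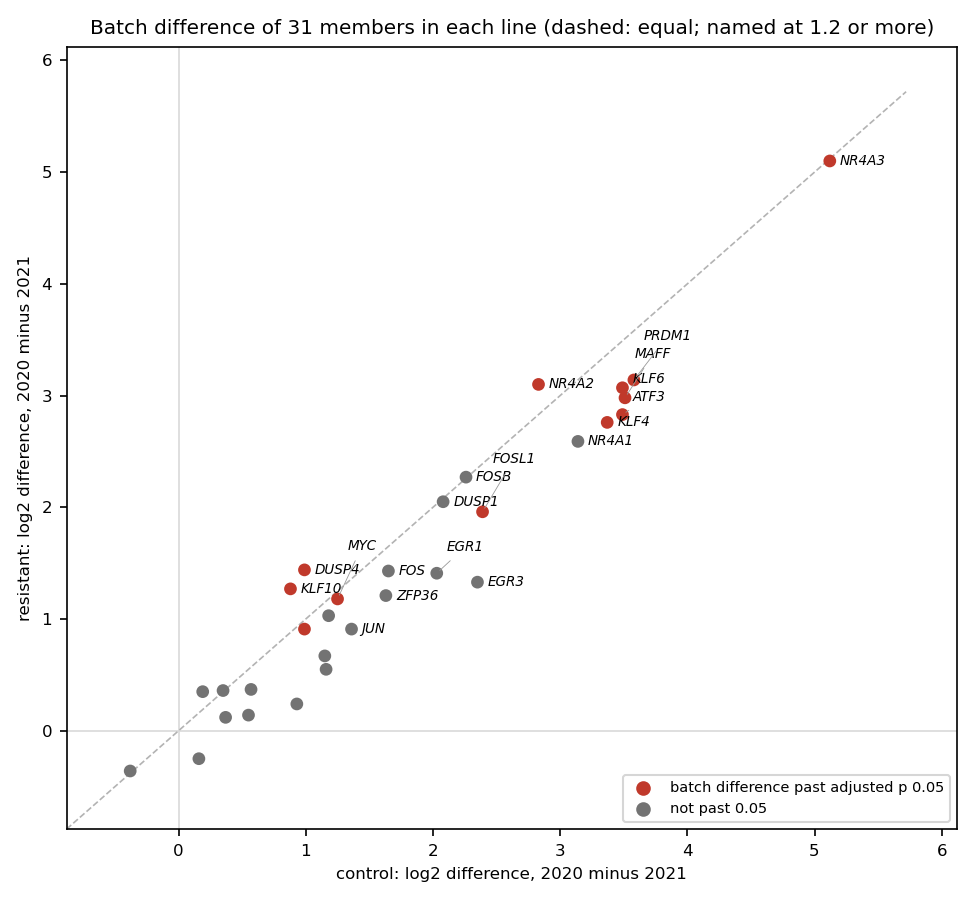
Batch difference (log2, 2020 minus 2021) of the 31 tested genes in control (x axis) and in resistant (y axis); red marks genes called over both lines, the dashed line is equality, and genes at 1.2 or more on either axis are named. The points follow the dashed line from DUSP6 below 0 to NR4A3 at 5.12 and 5.10.

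Within 2021 the 2 libraries of a line also differed from each other in many of these genes. Control 3 was at least 2-fold above control 2 in 13 members (41.9%, against 3.58% of all tested genes), and resistant 2 was at least 2-fold above resistant 3 in 12 (38.7%, against 2.06%). In 11 of them both held (35.5%, against 0.789%): FOS, FOSB, JUN, JUNB, EGR1, EGR2, EGR3, NR4A1, IER2, DUSP1 and DUSP5. No member was 2-fold apart in the other direction in either line, where 1.58% and 0.401% of all genes were. These are differences between single libraries with no replicate check and no test, and the order in which the libraries of each line are set against each other was chosen after the values were seen. The median log2 difference of the 31 was 0.78 between control 3 and control 2 and 0.82 between resistant 2 and resistant 3, beside -0.02 and 0.00 over all genes. The 13 mitochondrial genes had medians of 1.28 and 0.33 in the same 2 differences and summed to 112 CPM in control 3, 48.5 in control 2, 95.4 in resistant 2 and 76.9 in resistant 3; their part in these gaps was not tested.

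The largest gaps were those of FOS (6.09 log2 in control, 5.66 in resistant), FOSB (6.25 and 5.0) and EGR2 (6.38 and 5.07), genes known for fast and brief induction. Control 2 had 2 counts of EGR2, so its ratio is also given from counts: control 3 had 159-fold the level of control 2 (95% Poisson interval 43.8 to 1320, for counting error only). DUSP1 (3.38 and 3.63), EGR3 (3.85 and 3.40), EGR1 (3.27 and 3.09), NR4A1 (2.45 and 2.32) and JUN (2.24 and 1.57) came next. JUNB, IER2 and DUSP5 lay between 1.07 and 1.44 log2 in both lines. The 12 members called for the batch had gaps of at most 1.30 log2. NR4A2 (1.04 and 1.0), ATF3 (0.52 and 1.30), KLF6 (0.85 and 0.91), PRDM1 (0.78 and 0.71), MYC (0.61 and 0.82) and NR4A3 (0.90 and 0.43) were higher in control 3 and resistant 2, ATF3 and NR4A2 by 2-fold or more in 1 line. FOSL1 (-0.61 and 0.45), KLF4 (-0.11 and 0.20), MAFF (0.04 and 0.76), KLF10 (0.12 and 0.18), DUSP4 (0.04 and 0.46) and IER5 (0.45 and 0.50) stayed under 2-fold in both. None of the 11 genes was called for the batch; the 2021 libraries enter both comparisons, and a gap between them widens the spread against which the batch is tested. Across the 31 genes the 2 within-2021 differences correlated with r of 0.978 and rho of 0.902 (r over all genes 0.361), over separate libraries.

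**Figure D4:**
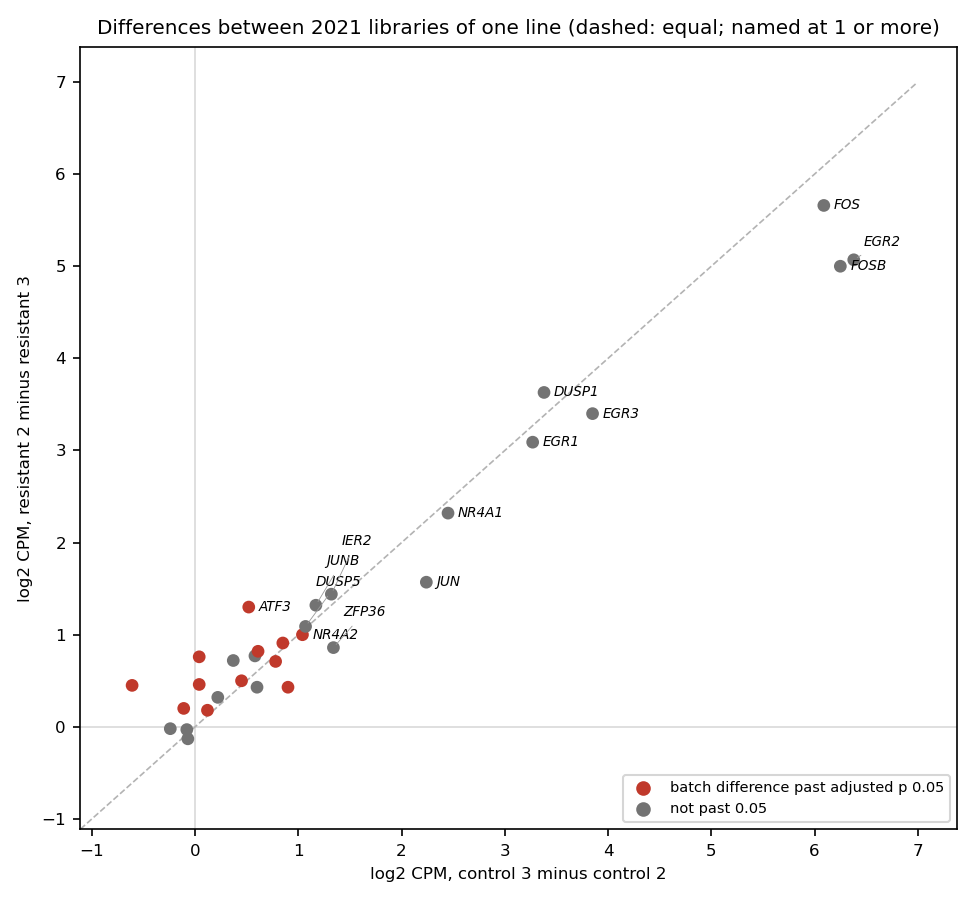
Difference in log2 CPM (prior count 2) between the 2021 libraries of 1 line, control 3 minus control 2 (x axis) and resistant 2 minus resistant 3 (y axis), for the 31 tested genes; red marks genes called for the batch, and genes at 1 or more on either axis are named. FOS, FOSB and EGR2 lie at 5.0 or more on both axes, and the red genes reach at most 1.04 on the x axis and 1.30 on the y axis.

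Other genes of the pathway were read from lists that do not include the members. The lists share some genes, SRF, CCND1, CXCL8, DDIT3 and ATF4 among them, and such a gene is counted in each of its lists. Of 36 other immediate early genes 19 rose and 3 fell in 2020 (background 11.4% and 11.5%), with a median log2 difference of 0.81. The same background applies to the batch counts of every list below. For line counts it is 6.23% higher and 5.48% lower in resistant, and several lists lie near these shares. CSRNP1, a nuclear protein induced by AXIN1, rose by 3.19 ± 0.15 log2 (SE; adjusted p = 3.3e-05), and TNFAIP3, which restrains NF-kappa-B, by 3.17 ± 0.17 (4.9e-05). CEBPB fell by 0.57 ± 0.12 log2 (adjusted p = 0.013), and RGS2, which damps G protein signals, by 1.23 ± 0.20 (0.00652). Within 2021, CCN2, EGR4, CXCL2 and SLC2A3 of this list were 2-fold apart in both lines in the order FOS showed. EGR4 had 4 counts in control 2 and 2 in resistant 3, and SLC2A3 had 14 and 18, so their gaps rest on few counts. Between the lines 2 of the 36 rose in resistant, RGS2 (1.03 ± 0.18 log2, adjusted p = 0.00836) and TNFAIP3 (0.87 ± 0.16, 0.0117), and 2 fell, SRF and RHOB (background 6.23% and 5.48%).

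Genes of ERK output and feedback outside the members rose in 12 of 18 tested cases in 2020 and fell in none, with a median of 0.74 log2. CCND1, the G1 cyclin, rose by 1.5 ± 0.13 (adjusted p = 0.000459) and SPRY2, a receptor kinase inhibitor, by 0.97 ± 0.12 (0.00178). Between 2021 libraries none of this list was 2-fold apart in both lines. In resistant cells 4 of the 18 were higher and 0 lower, among them PHLDA1 (0.78 ± 0.14 log2, adjusted p = 0.00946) and SPRED2 (0.45 ± 0.10, 0.0249). CCND1 did not differ between the lines beyond its error (0.01 ± 0.13 log2).

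Upstream, the 27 tested genes of the MAP kinase cascade moved both ways with the batch, 8 up and 6 down, with MAP2K4 (1.5 ± 0.10 log2, adjusted p = 0.00011) among those that rose and MAPK14 (-0.53 ± 0.10, 0.0114) and MAPK7 (-0.58 ± 0.12, 0.0143) among those that fell. Between the lines 1 was higher and 4 lower in resistant. MAPK13, a p38 isoform, was at 102.5, 157 and 135 CPM in control and 50.5, 68.5 and 61.0 CPM in resistant (-1.12 ± 0.11 log2, adjusted p = 0.00116), and the RAF kinase ARAF fell by 0.98 ± 0.12 log2 (0.0023). MAPK12, another p38 isoform, was higher (0.58 ± 0.15 log2, adjusted p = 0.0365). SRF itself was lower in resistant, at 54.1, 69.5 and 69.5 CPM in control and 35.3, 48.3 and 43.0 CPM in resistant (-0.61 ± 0.09 log2, adjusted p = 0.00451), as was its partner ELK1 (-0.81 ± 0.11, 0.00328), while the related ELK3 was higher (0.90 ± 0.15, 0.00656). Of the 9 genes of SRF and its cofactors 3 rose in 2020, among them CREB1 (1.08 ± 0.10 log2, adjusted p = 0.000548) and ELK4 (0.94 ± 0.12, 0.00255), and 1, SRF, fell (-0.37 ± 0.10, 0.0307).

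Of 18 tested AP-1 target genes 6 were higher in resistant cells and 0 lower, with a median line difference of 0.75 log2 (over all genes 6.23% were higher, and the median was 0.00). ITGA2, an integrin subunit, was at 48.5, 42.8 and 38.3 CPM in control and 86.8, 75.8 and 78.1 CPM in resistant (0.90 ± 0.09 log2, adjusted p = 0.0014), with no overlap between the lines. TGFB1 was at 27.5, 51.2 and 41.5 CPM in control and 61.9, 82.8 and 82.3 CPM in resistant (0.94 ± 0.12, adjusted p = 0.00248). With the batch 6 rose and 1 fell; IL6, a cytokine gene, rose by 4.37 ± 0.29 log2 (adjusted p = 0.00011), from under 1 CPM in each 2021 library to 3.65 and 15.5 CPM in control 1 and resistant 1, and TGFB1 fell by 0.58 ± 0.13 (0.0167). Each of these genes also has regulators other than AP-1.

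Of 16 tested bZIP relatives outside the members, 2 rose in 2020, NFE2L2 among them (0.72 ± 0.11 log2, adjusted p = 0.00537), and 3 fell, ATF5 among them (-1.04 ± 0.18, 0.00777). Of 11 MYC partners 2 rose and 3 fell; MAX, its dimer partner, rose by 0.58 ± 0.10 log2 (adjusted p = 0.00814) and MXD4 fell by 0.81 ± 0.14 (0.00741). Of 5 other MAP kinase phosphatases DUSP7 fell in 2020 (-0.89 ± 0.14 log2, adjusted p = 0.00499), and DUSP22 was lower in resistant (-0.57 ± 0.12, 0.0171). The 9 tested heat shock genes had a median batch difference of -0.05 log2, with 1 risen and 2 fallen, and of 10 genes of the unfolded protein response 6 rose and 0 fell, with a median of 0.49. All 13 mitochondrial genes rose in 2020, by a median of 2.98 log2, and none differed between the lines. Among tested markers of leukocytes, fibroblasts and endothelial cells, CDH5 alone was called for the batch (adjusted p = 0.0473). Leukocyte markers summed to 8.65 to 20.97 CPM, fibroblast markers to 23.8 to 30.97 CPM and endothelial markers to 9.28 to 66.0 CPM, the last mostly from KDR, which was 1.94 and 2.31 log2 higher in control 3 and resistant 2 than in control 2 and resistant 3. The part of these lists in the members' differences was not tested.

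**Figure D5:**
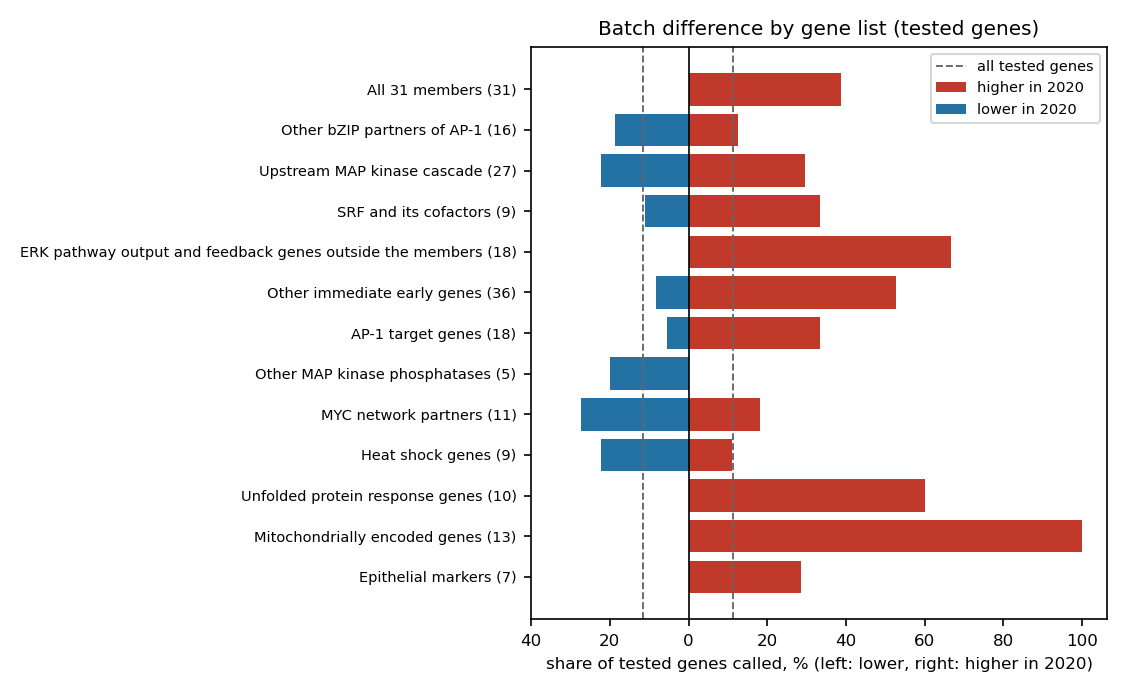
Share of the tested genes of each list called for the batch difference (adjusted p under 0.05), higher in 2020 to the right (red) and lower to the left (blue), for the members and the other lists with at least 5 tested genes; numbers in brackets are tested genes and dashed lines are the shares over all 13950. Bars to the right pass the dashed line most for mitochondrial genes (13 of 13), ERK output (12 of 18) and unfolded protein response genes (6 of 10), while the members reach 38.7% with none to the left.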

How the data were processed

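RNA was extracted from 3 control and 3 resistant samples, and 100 ng of each went into KAPA RNA HyperPrep libraries that were enriched for coding sequence with exome probes of Twist, per the labels' protocols. The authors deposited raw counts, whole numbers per Entrez gene ID in 1 table with a column per library. Trimmomatic 0.38, STAR 2.7.8a, featureCounts of Subread and GRCh38 are named, per the submitters' processing notes; strand setting, annotation release and how reads with several matches were treated are not given in those notes. Overlapping and antisense genes can therefore share reads, and exome capture can favour coding sequence unevenly between genes.

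IDs were matched to a RefSeq gene table of GRCh38.p14 (27745 of 28395). With edgeR 4.0.16 in R 4.3.3, filterByExpr by group kept 13950 genes, counts were scaled by TMM, and robust quasi-likelihood fits were made on all 6 libraries: line plus batch year (3 residual degrees of freedom) for the line and the batch difference, and 1 mean per line and year (2 residual degrees of freedom) for the batch difference in each line and for their difference. These are 5 comparisons, each with Benjamini-Hochberg adjustment over all tested genes at 0.05. Standard errors come from the F statistic, and log2 CPM used a prior count of 2. Alternatives were DESeq2 1.42.0, other size factors, no filter, other terms, and libraries left out. All members are named; of the other lists, up to 2 risen and 2 fallen genes with the lowest p in each difference; some genes that this rule takes are not reported here. The members, the lists and this rule were chosen with earlier results of these data known.

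Pairs of libraries of 1 line differed beyond counting noise (chi-square 70 to 215 times its degrees of freedom), so none was taken as a repeat deposit of another; this does not show separate cultures. Over 13950 genes, control and resistant libraries with the same replicate number in the labels deviated together from their line means. The r was 0.729, 0.143 and 0.155 for numbers 1, 2 and 3. A fit with the number as a block was therefore run beside the line difference. These deviations include the batch year, which libraries 2 and 3 share, so the last 2 values do not show pairing by number within 2021. Control 2 deviated more with resistant 3 (r = 0.57) and control 3 with resistant 2 (r = 0.477), and the difference of libraries 2 and 3 in control ran against that in resistant (r = -0.361), so a crossed block was added. Promoters came from RefSeq (GRCh38.p14).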

Additional observations from a re-analysis of the deposited data

How the results depend on the processing

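No called member changed sign under any alternative run. Of 1322 values of uncalled member results under alternatives, 90 had the other sign, 103 were called and 0 were both. The 4 members called between the lines became 0 without a batch term (362 of all genes, against 1633), 1 with the replicate block (1303 genes), 2 in the 2021 batch alone (1012 genes) and 1 to 3 when 1 library was left out (617 to 1985 genes, fewest without resistant 3). They became 6 without the filter on low counts and 6 with the DESeq2 test (2286 and 2204 genes), 3 higher and 3 lower in resistant in each. In both of these runs 14 members were called between batches (3910 and 4096 genes). The 12 members called between batches became 6 to 14 when 1 library was left out (262 to 4357 genes, against 3196), with 6 without control 1 and 7 without resistant 1, each of which leaves 1 library of 2020; without a line term 922 genes were called, and the batch calls of IER5 and DUSP4 were lost (adjusted p = 0.107 and 0.0913). In control, the 7 members became 23 without the filter on low counts and 11 with DESeq2 (1592 and 824 genes, against 265), and 4 to 11 with 1 library left out (262 to 3406 genes). In resistant, the 6 members became 22 without the filter, 11 with DESeq2 and 10 without robust estimation (1257, 677 and 205 genes, against 224), and 6 to 11 with 1 library left out (168 to 1951 genes). The difference of the batch differences gave 17 genes without the filter, 2 with DESeq2 and 0 to 4 with 1 library left out, with 0 members in each. The cause of these shifts was not tested. Leaving out control 2 and resistant 3 together, chosen after seeing the data, left 1 residual degree of freedom. It called 12 members between the lines, 4 higher and 8 lower in resistant (2302 genes), and FOSL2 was not among them. Between batches it called 21, all higher in 2020 (5241 genes). The 2 libraries were picked for their low FOS, FOSB and EGR counts, and leaving them out itself narrows the spread of those genes. Crossing the replicate numbers of the 2021 libraries called 7 members between the lines, FOSL2, KLF2, IER5 and DUSP4 among them, and 2254 genes. This pairing was also chosen from these data, which itself can narrow the spread. A comparison that loses its only library on 1 side (control 1 for the batch in control, resistant 1 in resistant) has no value. Low counts limit IER3 (1 to 10 counts) and EGR2 in control 2 (2 counts); for FOS, FOSB and the EGR genes the gap between libraries widens the error.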
